A study of Mus musculus with 8 samples.

Results

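The genes described here are 34 markers of endothelial cells, which line blood and lymphatic vessels, and of mural cells, the pericytes and smooth muscle cells that wrap them. They were chosen by name, from genes known to mark these cells, and read as an account of vascular RNA in brown adipose tissue (BAT). All 34 were found among the 33641 genes of the deposited files, 30 of them endothelial and 4 mural. For 33 of the 34, counts were high enough to be tested, and the lymphatic gene Prox1 was not.

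The libraries are RNA-seq of interscapular BAT from 8 mice on the C57BL/6 strain, all aged 28 weeks. The labels give 3 libraries (A7, A8 and A12) the genotype wild-type, called control below, and 5 (A24, A25, A26, A29 and A31) the genotype adipo-HuR-/-. The study made the second genotype by crossing mice with a floxed allele of HuR, an RNA-binding protein encoded by Elavl1, to mice with a Cre recombinase driven by the adiponectin promoter. Per its methods, controls were littermates of 3 kinds (wt/wt-cre+, flox/flox-cre− and wt/flox-cre−), and the labels do not say which kind each library came from. That promoter is used to drive Cre in adipocytes. Recombination in endothelial and mural cells was not read here, and the RNA came from whole tissue in which all these cells are mixed. The legend of the RNA-seq figure gives the group sizes the other way round from the labels, and the text does not name the animals. The study describes calcium-handling genes, several of them known from striated muscle, as reduced in its knockout, and under the labels the contractile genes of muscle read below point the same way with either scaling. This does not show the genotype of any single library. The groups below follow the labels.

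BAT is among the most densely vascularised tissues of the body. Its capillaries bring the oxygen and the lipid that brown adipocytes burn, and carry away the heat. Brown adipocytes secrete VEGF-A, which acts on endothelial receptors, and capillary endothelium in turn holds lipoprotein lipase, the enzyme that frees fatty acids from circulating lipoproteins.

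Estimated counts of 105129 transcripts, deposited by the authors, were summed by gene. The control libraries A7, A8 and A12 held 60622522, 51751002 and 50673814 counts. A24, A25, A26, A29 and A31 held 18264754, 17558090, 67498055, 50893173 and 58727739, so A24 and A25 were the shallow ones. Levels are given as CPM (counts scaled to a common library size, with edgeR's TMM factors), and a positive log2 fold change stands for a higher level in the libraries labelled adipo-HuR-/-. A gene is called at an adjusted p of at most 0.05 (edgeR's quasi-likelihood test, Benjamini-Hochberg over all 14851 genes tested) and a fold change of at least 1.5.

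Elavl1 itself (chromosome 8, 4285382 to 4325413 on GRCm38) was read at 50.6, 48.0 and 49.2 CPM in A7, A8 and A12, and at 61.9, 47.3, 43.4, 61.3 and 61.2 CPM in A24, A25, A26, A29 and A31. The highest 3 of the 8 values were in libraries labelled adipo-HuR-/-, the lowest 2 as well, and the groups overlap. The mean (± SD) was 49.3 ± 1.28 CPM over the 3 control libraries and 55.0 ± 8.95 CPM over the other 5, and the log2 fold change was 0.16 with a standard error of 0.162 and an edgeR adjusted p of 0.667. It was 0.46 with the most abundant transcript, 0.38 with total-count scaling, 0.29 with GC and length trends removed, and 0.11 to 0.24 with a library left out. Total Elavl1 RNA does not tell the groups apart, so every direction below rests on the labels. Counts summed over a gene do not show whether the floxed exons are missing, and HuR protein was not read here. The tissue did carry its own markers: Ucp1, the uncoupling protein of brown fat mitochondria, was read at 4843, 11438 and 9483 CPM in A7, A8 and A12, and at 4251 to 10703 CPM in the other 5 libraries.

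No vascular marker passed the test. In bulk samples fewer cells of a type and less RNA per cell cannot be told apart, so each level here is one of RNA and not of vessels or cells. Of all 14851 genes tested, 105 were called (0.707%), 69 of them lower than in the control libraries and 36 higher; of the 33 markers tested, edgeR's quasi-likelihood test called 0. DESeq2's Wald test called 1 marker, edgeR's likelihood ratio test 1 and limma voom 0, and the 1 gene was Sox18 both times. Of all 14851 genes these tests called 823, 655 and 157. An unadjusted p under 0.05 was given to 4 of the 33 (Sox18, Egfl7, Tie1 and Gpihbp1), against 17.0% of all genes. The libraries labelled adipo-HuR-/- lay wholly above the control libraries for 4 markers (Sox18, Egfl7, Gpihbp1 and Pecam1), against 5.37% of all genes, and wholly below them for 0, against 6.09% of all genes. Without A8, Sox18 was called, with a log2 fold change of 1.20 and an edgeR adjusted p of 0.0379, where 145 genes were called in all. The count over all genes was 190 without A12, 13 without A7, 15 without A25, 10 without A26, 14 without A29 and 17 without A31.

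By sign alone, 26 of the 33 log2 fold changes were above 0 and 7 below, or 21.2% below, where 49.9% of all genes tested were below 0. The median over the markers was 0.16, and over all genes 0.00. The lowest value was -0.36 (Cspg4 and Lyve1) and the highest 0.87 (Sox18). Scaling by total counts alone, in place of TMM, shifted the median of all genes to 0.23 and that of the markers to 0.39, with 2 markers below 0 and Sox18 called at 1.14 (adjusted p of 0.0368). With that scaling 25 genes were called lower and 96 higher. The count of markers below 0 was 12 without A8 and 11 without A29, and the median was 0.24 without A7, 0.25 without A24 and 0.31 without A12.

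**Figure D1:**
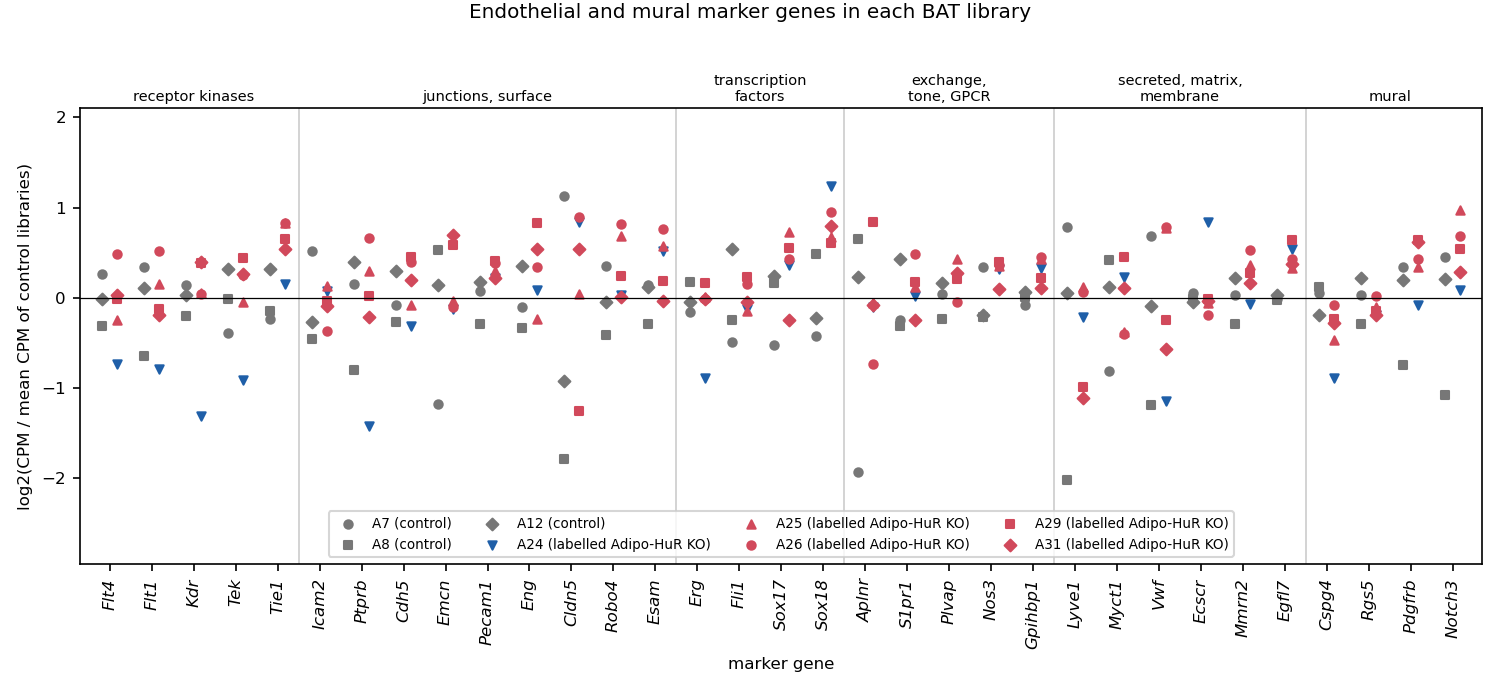
Level of each of the 33 markers tested in each of the 8 libraries, as the log2 of its CPM over the mean CPM of the 3 control libraries. Grey symbols are control libraries, red and blue symbols are libraries labelled adipo-HuR-/- (blue is A24), and the 4 genes whose groups do not overlap (Sox18, Egfl7, Gpihbp1 and Pecam1) have every red and blue symbol above every grey symbol.

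Receptor tyrosine kinases carry growth signals into the endothelium, and 5 were among the markers: Kdr, the main signalling receptor for VEGF-A; Flt1, which binds VEGF-A tightly and signals weakly; Flt4, the receptor for VEGF-C and VEGF-D; Tek, the angiopoietin receptor; and Tie1, its partner. Of these 5, 0 were called, 2 had a log2 fold change below 0 (Flt4 and Flt1, both above 0 with total-count scaling), and the median was 0.03. Kdr was read at 135, 106 and 125 CPM in A7, A8 and A12, and at 49.1, 127, 126, 159 and 160.5 CPM in A24, A25, A26, A29 and A31. A24 stood lowest of all 8 libraries and A29 and A31 highest, so the groups overlap, with a log2 fold change of 0.03, a standard error of 0.320 and an edgeR adjusted p of 0.974. Flt1 was read at 154, 78.2 and 132 CPM in the control libraries and at 70.7, 136, 175, 112 and 107 CPM in A24, A25, A26, A29 and A31. Here A24 and A8 were the low libraries, 1 from each group, and the log2 fold change was -0.02 (standard error 0.295). Flt4 (4.96 to 11.6 CPM, log2 fold change -0.03) and Tek (14.9 to 38.0 CPM, 0.07) were also lowest in A24.

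Tie1 had the largest difference of the 5 receptors. It was read at 25.4, 27.1 and 37.4 CPM in A7, A8 and A12, and at 33.4, 53.2, 53.3, 47.0 and 43.8 CPM in A24, A25, A26, A29 and A31. All of the libraries labelled adipo-HuR-/- except A24 lay above A12, the highest control library. Levels averaged (mean ± SD) 30 ± 6.46 CPM over the 3 control libraries and 46.1 ± 8.21 CPM over the other 5, a log2 fold change of 0.62 with a standard error of 0.199. The edgeR adjusted p was 0.147, and 0.0505 to 0.503 over 19 alternative ways of processing.

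Proteins of cell contacts and of the endothelial surface made up 9 markers, with 0 called, 8 log2 fold changes above 0, and a median of 0.31. Pecam1, an adhesion protein of endothelial contacts, was read at 90.3, 69.9 and 96.8 CPM in A7, A8 and A12, and at 99.9, 105, 112, 114 and 99.9 CPM in A24, A25, A26, A29 and A31. The groups do not overlap, by the small distance between A12 and both A24 and A31. The mean (± SD) was 85.6 ± 14.1 CPM over the 3 control libraries and 106 ± 6.72 CPM over the other 5, with a log2 fold change of 0.31, a standard error of 0.151 and an edgeR adjusted p of 0.331. Without A8 the value was 0.19, and taking Pecam1's most abundant transcript in place of the gene gave -0.09.

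Cdh5, the cadherin of endothelial adherens junctions, was read at 113, 99.3 and 147 CPM in A7, A8 and A12 and at 96.4, 113, 158, 164 and 137 CPM in A24, A25, A26, A29 and A31. The groups overlap, A24 and A8 being the low libraries, and the log2 fold change was 0.16 with a standard error of 0.213 (0.04 without A8, 0.07 without A29 and 0.33 without A12). Cldn5, the claudin of endothelial tight junctions, had the widest ratio between its highest and lowest library of the 9: 31, 4.10 and 7.50 CPM in the control libraries and 25.4, 14.6, 26.5, 5.93 and 20.6 CPM in the others. Its highest and its lowest library were both controls, and its log2 fold change of 0.38 had a standard error of 0.624. It was 1.68 without A7 and -0.05 without A8.

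The other surface markers also overlapped between groups. Esam, an adhesion molecule of tight junctions, had the largest log2 fold change of the 9 in the main fit (0.42, standard error 0.202, edgeR adjusted p of 0.322). It stood at 0.25 with voom, where Emcn stood at 0.62, and at 0.20 with the muscle covariate, where Cldn5 stood at 1.06. Robo4, a roundabout-family receptor of endothelium, stood at 0.40 (0.24 without A8 and 0.61 without A7) and Eng, a co-receptor for the TGF-β family, at 0.36 (0.21 without A29 and 0.58 without A12). Emcn, a sialomucin of capillaries and veins, stood at 0.26, with A7 far below the rest at 9.91 CPM where the other 7 libraries held 20.6 to 36.5 CPM; without A7 the value was -0.10, and without A8 0.63. Ptprb, the phosphatase that acts on Tek and on Cdh5, stood at 0.02 and was read at 33.2 CPM in A24 and 50.9 in A8 against 76.4 to 141 CPM in the other 6. Icam2, an adhesion molecule for leukocytes, had the only value of the 9 below 0, -0.05, and stood at 0.14 with total-count scaling.

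Of the 5 transcription factors, Sox18 had the largest difference of all 33 markers. Sox18, a factor of the SoxF family that acts in vessel and lymphatic development, lies on chromosome 2 (181669836 to 181671640, minus strand, GRCm38). It was read at 10.7, 20.1 and 12.2 CPM in A7, A8 and A12, and at 33.7, 22.9, 27.7, 21.8 and 24.9 CPM in A24, A25, A26, A29 and A31. All 5 libraries labelled adipo-HuR-/- lay above all 3 control libraries, and the nearest values were A8 and A29. Levels averaged (mean ± SD) 14.3 ± 5.06 CPM over the 3 control libraries and 26.2 ± 4.74 CPM over the other 5, a ratio of 1.83. The log2 fold change was 0.87 with a standard error of 0.234, and the edgeR adjusted p of 0.104 did not pass. Over the 19 alternatives the adjusted p lay between 0.0166 and 0.316 and the log2 fold change between 0.53 and 1.20. Sox18 was called by DESeq2's Wald test (0.0166), by the likelihood ratio test (0.0320), with total-count scaling (0.0368) and without A8 (0.0379). Over all genes these fits called 823, 655, 121 and 145, against 105 in the main fit.

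Sox17, of the same family and known for arterial identity, was read at 4.27, 6.91 and 7.27 CPM in A7, A8 and A12 and at 7.90, 10.2, 8.27, 9.02 and 5.18 CPM in A24, A25, A26, A29 and A31. A31 lay within the control values and the other 4 lay above them, and the log2 fold change was 0.40 with a standard error of 0.257. It was 0.19 without A7, 0.01 with the muscle covariate and -0.52 with the most abundant transcript. The ETS-family factors Erg and Fli1, which keep endothelial identity, stood at -0.09 and 0.02, and Erg at 0.17 with total-count scaling. Erg was read at 6.20 CPM in A24 against 10.3 to 13.0 CPM in the other 7 libraries, and Fli1 was lowest in A7 (8.60 CPM) and highest in A12, both controls. Prox1, the factor that sets lymphatic identity, had no count in A12 and A24 and at most 0.291 CPM (A7) elsewhere. Of the markers tested, Flt4 and Lyve1 were left as genes of lymphatic endothelium, and neither is shown here to come from it alone.

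Genes of capillary exchange, vessel tone and G protein-coupled signalling were 5, with 0 called and every log2 fold change above 0 (median 0.22). Gpihbp1, the protein that carries lipoprotein lipase across the capillary wall and holds it there, was read at 55.1, 58.8 and 61.2 CPM in A7, A8 and A12, and at 73.3, 78.8, 79.8, 67.8 and 63.0 CPM in A24, A25, A26, A29 and A31. The groups do not overlap, and A31 lay nearest to the control libraries. The mean (± SD) was 58.4 ± 3.09 CPM over the 3 control libraries and 72.5 ± 7.16 CPM over the other 5, with a log2 fold change of 0.31, a standard error of 0.138 and an edgeR adjusted p of 0.283 (0.125 to 0.789 over the 19 alternatives). Nos3, the endothelial nitric oxide synthase, was read at 22.9, 15.6 and 15.9 CPM in A7, A8 and A12 and at 22.6, 23.2, 23.3, 23.9 and 19.3 CPM in A24, A25, A26, A29 and A31. A7 lay among the libraries labelled adipo-HuR-/-, so the groups overlap, with a log2 fold change of 0.31 and a standard error of 0.167. Plvap, which forms the diaphragms of fenestrae and caveolae, stood at 0.22 (4.38 to 6.93 CPM), S1pr1, the receptor for sphingosine 1-phosphate that tightens the barrier, at 0.13 (42.4 to 73.8 CPM), and Aplnr, the apelin receptor, at 0.07 with a standard error of 0.499 (1.85 to 12.7 CPM).

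Secreted, matrix-binding and other membrane proteins were 6, with 0 called, 5 above 0 and a median of 0.14. Egfl7, a secreted protein of the vessel wall, lies on chromosome 2 (26580014 to 26593120, plus strand). It was read at 41.2, 40.7 and 42.4 CPM in A7, A8 and A12, and at 60.5, 52.1, 55.8, 64.6 and 53.7 CPM in A24, A25, A26, A29 and A31. Controls lay close together and all 5 others above them. Levels averaged (mean ± SD) 41.5 ± 0.874 CPM over the 3 control libraries and 57.3 ± 5.14 CPM over the other 5, a ratio of 1.38, with a log2 fold change of 0.47, a standard error of 0.133 and an edgeR adjusted p of 0.117. The adjusted p lay between 0.0131 (DESeq2's Wald test) and 0.517 over the 19 alternatives. DESeq2's Wald test did not call it, as its log2 fold change was 0.47 there too. With total-count scaling the log2 fold change was 0.69, past a fold change of 1.5, and the adjusted p of 0.0763 did not pass.

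Mmrn2, a glycoprotein of the endothelial matrix, stood at 0.27 with a standard error of 0.176 (16.1 to 28.5 CPM). Vwf, the clotting factor carrier stored in endothelial granules, ran from 5.29 CPM in A8 and 5.47 in A24 to 20.9 in A26, with a log2 fold change of 0.12 and a standard error of 0.492. Ecscr, a receptor of endothelial motility, was read at 10.9 CPM in A24 and at 5.33 to 6.32 CPM in the other 7 libraries; its log2 fold change was 0.16, and -0.08 without A24. Myct1, a membrane protein of endothelium, stood at 0.05. Lyve1, the hyaluronan receptor of lymphatic endothelium and some macrophages, was read at 4.06, 0.582 and 2.44 CPM in A7, A8 and A12 and at 1.09 to 2.56 CPM in the others. Both its highest and its lowest value were in control libraries, its log2 fold change was -0.36 with a standard error of 0.527, and without A7 it was 0.28.

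The 4 mural markers split by sign, with 0 called, 2 below 0 and a median of 0.15. Rgs5, a regulator of G protein signalling that marks pericytes, was read at 254, 202 and 288 CPM in A7, A8 and A12 and at 218, 231, 252, 224 and 218 CPM in A24, A25, A26, A29 and A31. The 5 libraries labelled adipo-HuR-/- all lay between the control libraries A8 and A7, and the log2 fold change was -0.12 (standard error 0.158) and 0.09 with total-count scaling. Cspg4, the NG2 proteoglycan of pericytes, was read at 59.2, 61.8 and 49.7 CPM and at 30.6, 41.1, 54.0, 48.2 and 46.8 CPM in the same order. A26 lay above A12 and the other 4 below every control, with a log2 fold change of -0.36, a standard error of 0.186 and an edgeR adjusted p of 0.355. Pdgfrb, the PDGF receptor by which mural cells are recruited, stood at 0.41 (standard error 0.253) and Notch3, the Notch receptor of mural cells, at 0.54 (standard error 0.319). In both, A8 was the lowest of the 8 libraries, at 11.9 CPM for Pdgfrb and 8.03 CPM for Notch3, and without A8 their values were 0.15 and 0.21.

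**Figure D2:**
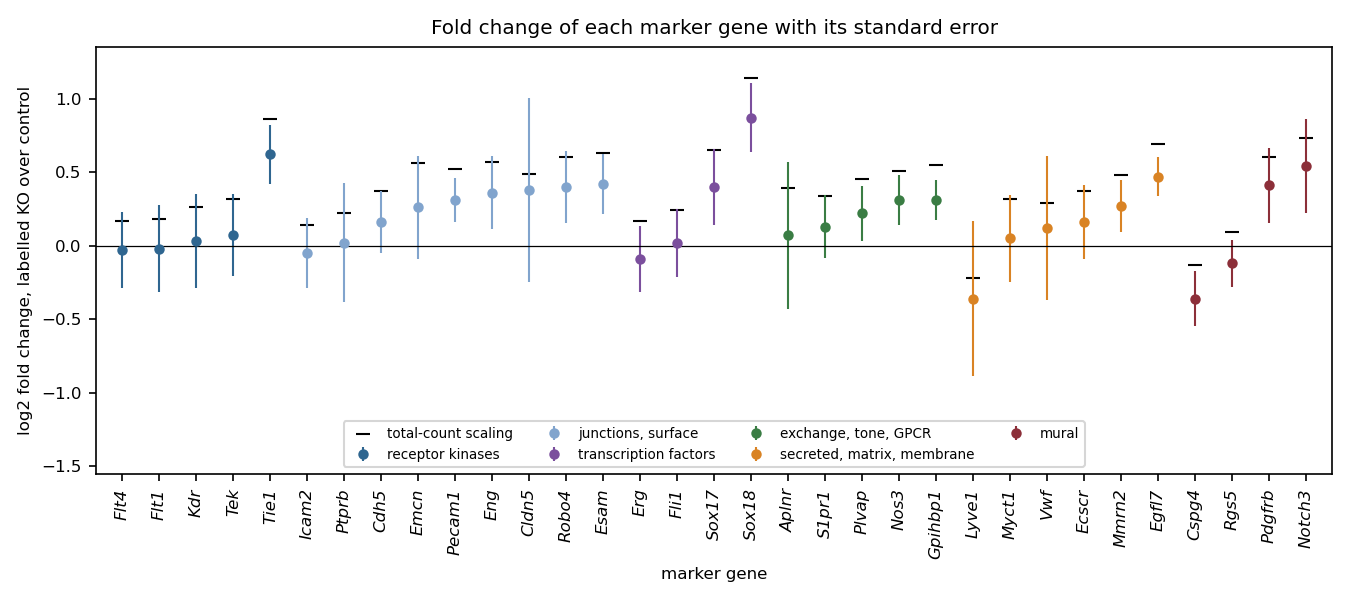
Log2 fold change of each of the 33 markers tested (points, coloured by role) with its standard error (bars), and the value with total-count scaling (black dashes). The points run from -0.36 (Cspg4 and Lyve1) to 0.87 (Sox18), and each black dash lies above its point. That scaling shifts the median of all genes by 0.23.

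Summed over the 30 endothelial markers, the level was 1091, 872 and 1193 CPM in A7, A8 and A12, and 931, 1208, 1414, 1320.1 and 1186 CPM in A24, A25, A26, A29 and A31. A8 and A24 were the low libraries, 1 in each group, and A26 and A29 the high ones. The mean (± SD) was 1052 ± 164 CPM over the 3 control libraries and 1212 ± 182 CPM over the other 5, a log2 ratio of 0.20, and the groups overlap. The ratio was 0.42 with total-count scaling, 0.09 without A8, 0.30 without A12 and 0.31 without A24 and A25. The spread between single libraries of a group was 0.230 on the same scale with TMM. That spread is not the error of a ratio of group means, so no ratio here is judged against it. No spread is given for total counts.

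The 4 mural markers summed to 362, 284 and 380.0 CPM in A7, A8 and A12 and to 285, 330.1, 360.3, 328 and 317 CPM in A24, A25, A26, A29 and A31. All 5 libraries labelled adipo-HuR-/- lay between the lowest and the highest control library. Levels averaged (mean ± SD) 342 ± 51.1 CPM over the 3 control libraries and 324 ± 27.0 CPM over the other 5, a log2 ratio of -0.08. The sign turned with total-count scaling (0.14), with the mean of log2 levels in place of the sum (0.15), with GC and length trends removed (0.01), without A12 (0.01) and without Rgs5, the gene with the most counts of the 4 (0.02), while the ratio was -0.19 without A8, -0.12 without A26, and -0.03 without A7 or without A24.

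**Figure D3:**
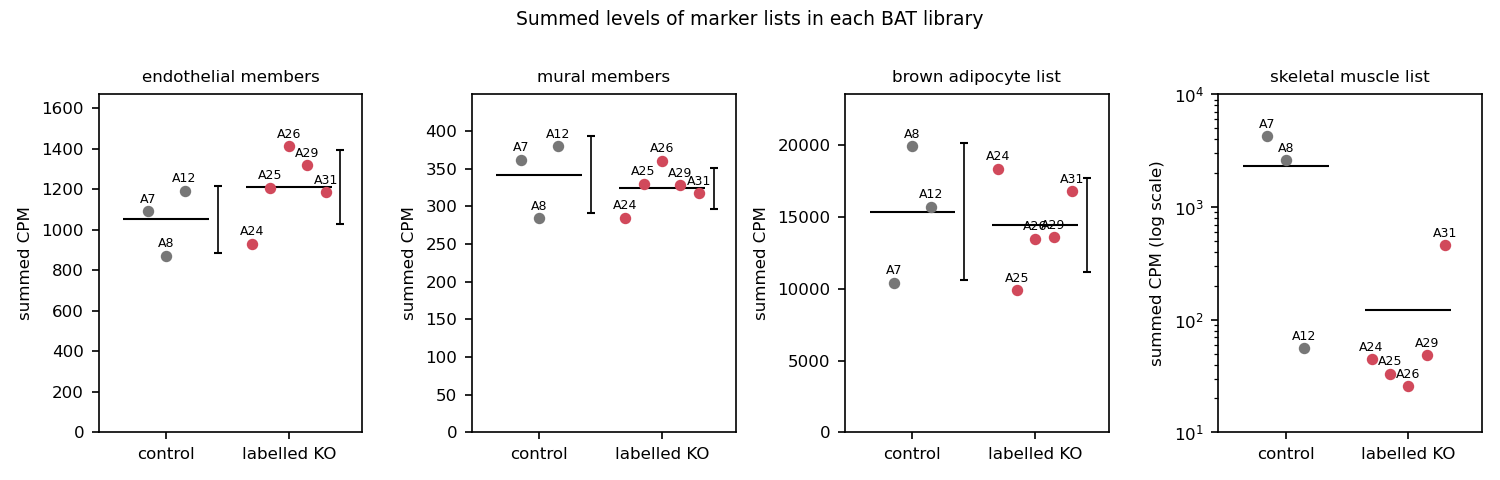
Summed CPM of the endothelial markers, the mural markers, a list of brown adipocyte markers and a list of skeletal muscle contractile genes in each library, with group means (horizontal bars) and, in the first 3 panels, SD (error bars, n = 3 and n = 5). The endothelial sums run from 872 CPM (A8) to 1414 CPM (A26), and the muscle sums, on a log axis, from 25.6 CPM (A26) to 4232 CPM (A7).

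Per length of transcript, in TPM (counts per base of transcript, scaled to a common total, the mean over 8 libraries), the most abundant marker was Gpihbp1 at 112 ± 27.6 TPM (SD, n = 8). Rgs5 at 81.2 ± 19.3 TPM and Egfl7 at 74.1 ± 20 TPM came next over all 8. Rgs5 stood at 80.6 TPM in the control libraries and 81.6 TPM in the others, and Egfl7 at 54.3 and 86.0 TPM, so their order was not the same in both groups. Cdh5 (45.5 ± 12.5 TPM), Pecam1 (43.6 ± 11.4 TPM) and Eng (42.0 ± 13.8 TPM) followed, each lowest in A8. The genes share the libraries, so this SD does not show whether they differ, and their order was not tested. Of the VEGF receptors, Kdr stood at 29.9 TPM and Flt1 at 26.2 TPM, and Flt4 at 1.86 TPM. At the low end were Lyve1 at 1.25 TPM and Prox1 at 0.0225 TPM. Erg's value of 2.43 TPM leaves out its most abundant transcript, which the annotation used for lengths does not hold. TPM was lowest in A8 for most of the markers, Gpihbp1 (66.9 TPM) and Rgs5 (45.3 TPM) among them. The scaling differs: A8 has the lowest TMM factor, 0.763, which CPM takes into account and TPM does not.

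The endothelial markers did not move as a single block between libraries. Each gene was centred within its group, and its log2 CPM over the 8 libraries was compared with the mean of the other endothelial markers. Mmrn2 followed the others most closely (Pearson r of 0.988), then Ptprb (0.938), Flt1 (0.875), Pecam1 (0.847) and Tie1 (0.828). Sox18 (-0.744), Ecscr (-0.717) and Myct1 (-0.505) ran against them, and Egfl7 (-0.0652) and Nos3 (0.198) showed little relation. These are descriptions over the same 8 libraries, given without p. Transcript length differed along this order. Mmrn2, Ptprb, Flt1, Pecam1 and Tie1 have 3974, 11451, 6735, 3240 and 4055 bases. Sox18, Ecscr and Myct1 have 1620, 1026 and 2845 bases, Egfl7 has 1128 and Nos3 4122. The part of length in the order was not tested. The mean of all 29 endothelial markers tested, centred within its group, was lowest in A24 (-0.22 in log2 CPM) and A8 (-0.19). It was highest in A12 and A26 (both 0.17). Over 14796 genes, levels in A24 and A8 fell with transcript length (Spearman correlations of -0.49 and -0.33).

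Outside all lists, the 8 genes tested that followed the endothelial mean most closely by the same measure were Ipo7 (0.993), Sos2 (0.989), Srgap2 (0.982), Mitf (0.981), Ids (0.977), Dync2h1 (0.975), Tcf7l2 (0.973) and Xpr1 (0.973). Ipo7 imports proteins into the nucleus, Mitf is a transcription factor and Dync2h1 a motor of cilia. These 8 were picked as the highest of all genes tested outside the lists, so high values come with the choice. They do not show a tie to endothelium, and the part of transcript length in the likeness was not tested. Ipo7 was read at 88.2, 74.6 and 101 CPM in A7, A8 and A12 and at 63.6, 82.4, 87.0, 79.1 and 73.1 CPM in A24, A25, A26, A29 and A31.

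Levels of the markers in A24 went with transcript length. Across the 33 markers, the Spearman correlation of a gene's length with its level in A24, relative to the mean of the 8 libraries, was -0.77, and in A8 it was -0.27, in A7 0.35, in A26 0.36 and in A12 0.39. Over 14796 genes the same correlation was -0.49 in A24 and -0.33 in A8. Genes within a library are not independent replicates, and no p is given. The 8 markers of at least 5000 bases (Kdr, Flt1, Flt4, Vwf, Ptprb, Pdgfrb, Cspg4 and Notch3) had a median of -0.69 (log2) in A24 and -0.63 in A8, and the 11 under 2500 bases a median of 0.15 in A24 and -0.18 in A8. Erg, among these 11 at 1835 bases, went the other way, at -0.79 in A24. Its length leaves out its most abundant transcript. In A12 levels went with GC content, at a Spearman correlation of -0.71 across the 33 markers and -0.42 over the 14796 genes. The GC-rich Sox18 (60.9% GC) and Cldn5 (60.5% GC) stood lowest there, while Plvap (60.6% GC) stood at 0.03.

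These properties also went with the differences between groups. The log2 fold change of the markers had a Spearman correlation of 0.55 with GC content and of -0.25 with length, the latter 0.01 without A24 and A25. Its median was 0.31 over the 11 short markers, 0.14 over the 14 of middle length and 0.02 over the 8 long ones. With each library's trend on GC content and on length removed, Sox18 stood at 0.53 (edgeR adjusted p of 0.223), Egfl7 at 0.23 (0.517), Tie1 at 0.37 (0.383) and Gpihbp1 at 0.13 (0.789). Eng and Nos3 stood at 0.10 each and Cldn5 at 0.05, while Cspg4 stood further from 0, at -0.58 (0.133). Emcn (0.40), Ptprb (0.20), Myct1 (0.17), Fli1 (0.15) and Flt4 (-0.13) were also further from 0 than in the main fit. Sox17 (0.21) and Robo4 (0.19) were nearer to 0. Pecam1 stood at 0.32 and the median over the markers at 0.13. The part of base composition and length in the differences beyond this was not tested.

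**Figure D4:**
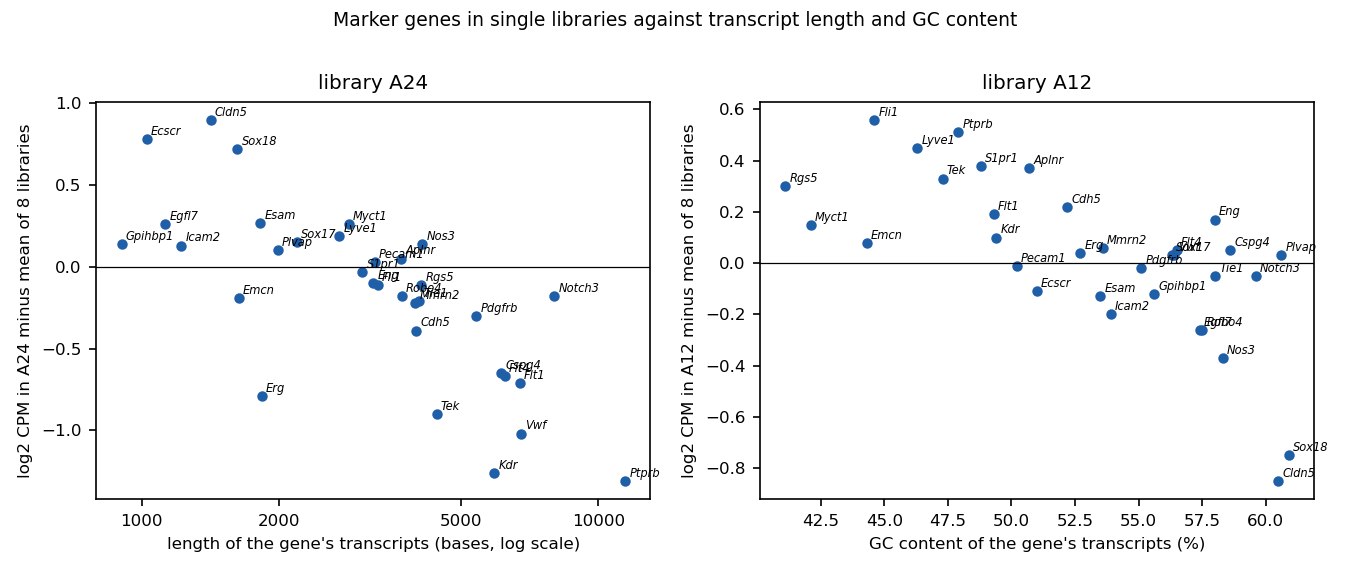
Level of each of the 33 markers in A24 against the length of its transcripts (left, log axis, bases) and in A12 against their GC content (right, percent), as log2 CPM minus the mean of the 8 libraries. Long markers such as Ptprb and Kdr stand low in A24 (Spearman correlation -0.77), and GC-rich markers such as Sox18 and Cldn5 stand low in A12 (-0.71).

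Single transcripts were tested across the whole table, where 4 of 41808 transcripts were called (0.00957%). Of the 90 transcripts of 33 markers that were tested, edgeR's quasi-likelihood test called 0, and 5 had an unadjusted p under 0.05 (8.17% of all transcripts); 64 had a log2 fold change above 0 and 26 below (48.7% of all transcripts below 0), with a median of 0.31 against 0.02 over all transcripts. The split of reads between transcripts of a gene is an estimate. Egfl7-211, a short transcript of 3 exons from the end of the gene, had the smallest adjusted p of the 90, 0.298. It was read at 2.43, 2.76 and 3.25 CPM in A7, A8 and A12 and at 6.66, 6.08, 4.99, 7.05 and 5.19 CPM in A24, A25, A26, A29 and A31. The groups do not overlap, and the log2 fold change was 1.09 with a standard error of 0.257, where Egfl7-202, the transcript of 10 exons that held 44.1% of the gene's tested counts in the control libraries and 43.3% in the others, stood at 0.38.

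In Flt1, the full-length transcript Flt1-202 (30 exons) held 78.9% of the tested counts in the control libraries and 76.2% in the others, and stood at -0.12 (edgeR adjusted p of 0.979). The shorter Flt1-203 (13 exons), which ends before the exons for the membrane-spanning and kinase parts, held 21% and 23.5% and stood at 0.08 (adjusted p of 0.994). In Tek, the minor transcript Tek-202 was read at 0.489, 0.956 and 0 CPM in A7, A8 and A12 and at 5.38, 2.45, 1.85, 3.72 and 2.04 CPM in A24, A25, A26, A29 and A31, without overlap, and did not pass (log2 fold change 2.68, standard error 1.13, adjusted p of 0.587). In Pecam1, A24 was unlike the other libraries in its split: Pecam1-207 was read at 34.9 CPM there and at 5.28 to 16.2 CPM elsewhere, and Pecam1-204 at 0.888 CPM against 8.71 to 30.2 CPM.

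The Egfl7 locus also carries a microRNA of endothelial cells, miR-126, in intron 7 of Egfl7-202. Egfl7-211 begins at base 26591434 of chromosome 2, 10 bases after the end of the mature strand miR-126a-3p (chr2:26591402-26591423, plus strand, GRCm38.p6). The microRNA is shown because the transcript with the smallest adjusted p among the markers starts beside it; poly(A) libraries of this kind do not read mature microRNAs, and its level is not known here. This choice was made after the values were seen. Its RefSeq sequence of 22 bases, with the seed (bases 2 to 8) in capitals, is
miR-126a-3p: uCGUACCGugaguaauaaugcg

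The RefSeq promoter stretches used here cover 16 of the 34 markers, in 21 stretches. Among the 4 markers with an unadjusted p under 0.05, Egfl7 is the one whose RefSeq start (base 26583865) lies within 50 bases of the GENCODE start of its most abundant transcript, Egfl7-202 (15 bases apart). The 250 bases before that start are shown for their match to AGGAAG, a form of the GGAA core bound by ETS factors such as Erg and Fli1. The motif was searched on both strands and is in capitals. It lies in 8 of the 21 stretches of markers and in 29.5% of all 32851 promoter stretches of the same length. A match is a description of the letters and not of a binding site. The stretch is chr2:26583615-26583864, plus strand, of GRCm38.p6:
Egfl7 promoter: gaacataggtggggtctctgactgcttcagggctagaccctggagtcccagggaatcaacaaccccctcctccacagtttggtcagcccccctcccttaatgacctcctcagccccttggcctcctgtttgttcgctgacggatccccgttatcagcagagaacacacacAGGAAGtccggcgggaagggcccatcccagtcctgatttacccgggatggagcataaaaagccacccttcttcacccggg

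Genes that act on the vessels, and markers of other cells, were read from 15 further lists, each led by its genes with the highest mean CPM. Of the angiogenic ligands and genes of oxygen sensing, 29 of 30 were tested, 17 with a log2 fold change below 0 and 12 above (median -0.06, and 0.17 with total-count scaling). DESeq2's Wald test, and edgeR without A12, also called Pdgfb, a ligand of Pdgfrb named after its value was seen (log2 fold change 0.64 in the main fit). Vegfd, a ligand of Flt4, was the 1 called by edgeR's quasi-likelihood test with all libraries: it was read at 3.53, 4.18 and 3.43 CPM in A7, A8 and A12, and at 1.47, 1.14, 0.978, 1.84 and 1.20 CPM in A24, A25, A26, A29 and A31. All 5 libraries labelled adipo-HuR-/- lay below all 3 control libraries. Vegfd fell by 1.49 on the log2 scale (standard error 0.260), with an edgeR adjusted p of 0.0416 (2.29e-05 to 0.212 over the alternatives). The call was kept without A12 (0.0467) and lost without A7 (0.106), A8 (0.0605), A24 (0.0505), A25 (0.118), A26 (0.0862), A29 (0.0593) or A31 (0.0874), without A24 and A25 (0.147), with the muscle covariate (0.212), with its most abundant transcript (0.0880), and with total-count scaling (0.0656). Where the call was lost, the log2 fold change lay between -1.79 (most abundant transcript) and -1.25 (total counts), and between -1.65 and -1.39 with 1 library left out. Vegfa, the ligand of Kdr and Flt1, was read at 469.9, 266 and 204 CPM in A7, A8 and A12 and at 337 to 498 CPM in the others, and Epas1, an oxygen-sensing transcription factor, at 448 to 515 CPM and 477 to 650.0 CPM. Both overlap between groups.

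Lists of further vascular genes held 0 called genes by edgeR's quasi-likelihood test, and their medians lay between -0.01 and 0.31. Of 26 further endothelial markers, 19 had a log2 fold change above 0 and 7 below (median 0.22), 5 had an unadjusted p under 0.05 (17.0% of all genes), 4 lay wholly higher (5.37% of all genes) and 0 wholly lower (6.09%); the smallest adjusted p was 0.0858, for Car4, an endothelial carbonic anhydrase named after its value was seen. Car4 was called by DESeq2's Wald test, the likelihood ratio test and with total-count scaling, and Ushbp1, also named after its value was seen, by the Wald test. The most abundant of them by count, Rgcc and Adgrf5, were read at 93.0 to 129 CPM and 141 to 227 CPM in the control libraries and at 133 to 213 CPM and 94.6 to 209.8 CPM in the others. Endothelial co-receptors and signalling genes, led by Tgfbr2 (72.2 to 192 CPM over the 8 libraries) and Nrp2 (85.2 to 153 CPM), counted 14 with 11 above 0 and a median of 0.31. Arterial markers, led by Sema3g (23.9 to 61.2 CPM) and Mgp (10.3 to 25.3 CPM), counted 9 with 7 above 0 and a median of 0.23. Venous markers, led by Ephb4 (19.6 to 31.8 CPM) and Nr2f2 (3.89 to 8.27 CPM), were 5 of 6 tested, with 2 above 0 and a median of -0.01 (0.23 with total-count scaling, equal to the shift of all genes). Further lymphatic markers, led by Sned1 (8.12 to 24.7 CPM) and Ccl21a (0 to 3.61 CPM), were 5 of 6 tested, with 3 above 0 and a median of 0.27. Further mural markers, led by Steap4 (30.4 to 62.5 CPM) and Abcc9 (18.0 to 49.5 CPM), counted 20 with 16 above 0 and a median of 0.24. The lists are named for cells that the genes mark, and which cells of the tissue gave each RNA was not read.

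Genes of lipoprotein lipase and fatty acid transport, and brown adipocyte markers, held 0 called by edgeR's quasi-likelihood test. DESeq2's Wald test called Fabp5 and Tcf15 of fatty acid transport and Cfd of the adipocyte markers, and edgeR's likelihood ratio test Fabp5 and Cfd, named here after their values were seen. Of 13 genes of lipoprotein lipase and endothelial fatty acid transport, which Gpihbp1 serves, 8 were below 0 (median -0.10, and 0.17 with total-count scaling). Lpl, the lipase itself, was read at 1761 to 4588 CPM in the control libraries and at 1943 to 4663 CPM in the others, and Fabp4, a fatty acid binding protein of adipocytes and capillary endothelium, at 7067 to 14538 CPM and at 6899 to 11153 CPM. Of 12 brown adipocyte markers, led by Ucp1 and Cidea (1361 to 2931 CPM), 8 were below 0 and the median was -0.10, or 0.17 with total-count scaling. Their sum was 10404, 19916 and 15699.6 CPM in A7, A8 and A12 and 18337, 9899, 13479, 13566 and 16751 CPM in A24, A25, A26, A29 and A31. A8 and A24, the libraries lowest in summed endothelial markers, were the highest in summed adipocyte markers of their groups. That relation was not tested.

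Skeletal muscle RNA differed between libraries. All 20 contractile genes of the list had a log2 fold change below 0 (median -4.64). Their sum was 4232, 2615 and 56.2 CPM in A7, A8 and A12, and 44.4, 33.2, 25.6, 48.2 and 457 CPM in A24, A25, A26, A29 and A31. A7 and A8 were high, A31 intermediate, and A12 lay with the other 4. By count Acta1 and Myh4 were the most abundant, at 619 and 1048 CPM in A7, and at 0.104 and 0.0209 CPM in A12. Myh7, a slow myosin, and Myl1, a myosin light chain, were called, with log2 fold changes of -7.86 (standard error 1.48) and -2.28 (standard error 0.432) and an edgeR adjusted p of 0.0474 each. For Myh7 the groups overlap, at 60.7, 9.29 and 0.0209 CPM in A7, A8 and A12 and 0 to 0.197 CPM in the others. Without A12 the adjusted p was 0.00484 for Myh7 and 0.00573 for Myl1. Myh7 also passed without A8 (0.0474) and Myl1 did not (0.0778), and neither passed without A7 (0.131 and 0.137), A24 (0.0759 and 0.0719), A25 (0.126 and 0.128), A26 (0.113 and 0.0992) or A29 (0.111 and 0.103). The log2 fold change of Myh7 was -5.58 without A7 and between -7.85 and -7.67 without A24, A25, A26 or A29. That of Myl1 was -2.03 without A7, -1.98 without A8 and between -2.36 and -2.13 without A24, A25, A26 or A29. Without A31, Myh7 did not reach the filter on low counts and Myl1 did not pass (0.0748, at -2.43). Both calls were lost with voom (0.451 for Myh7, at -3.92, and 0.117 for Myl1, at -1.71) and without A24 and A25 (0.188 each, at -7.61 and -2.24). The call of Myl1 was also lost with total-count scaling (0.0577, at -2.03) and with its most abundant transcript (0.133, at -2.32). With the mean log2 level of the list as a covariate, 12 of the 33 vascular markers were below 0, Sox18 stood at 0.95 (edgeR adjusted p of 0.316) and Tie1 at 0.43 (0.503). Vessels also run in muscle, and the share of vascular RNA that came with muscle was not tested.

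Markers of other cells completed the lists. Schwann and nerve markers (7 of 9 tested, 4 above 0, median 0.21) held 1 called gene, S100b, a calcium-binding protein made by Schwann cells and also by adipocytes. S100b was read at 132, 138 and 82.5 CPM in A7, A8 and A12 and at 56.1, 39.7, 43.8, 52.0 and 46.1 CPM in A24, A25, A26, A29 and A31. The groups do not overlap, and S100b fell by 1.31 on the log2 scale (standard error 0.193, edgeR adjusted p of 0.0250, 8.78e-07 to 0.212 over the alternatives). The call was lost without A7 (0.106), A25 (0.0813), A26 (0.0693), A29 (0.0595) or A31 (0.0551), without A24 and A25 (0.112), with its most abundant transcript (0.0566) and with the muscle covariate (0.212). The log2 fold change was -1.03 with that covariate and lay between -1.35 and -1.22 in the other fits that lost the call. A7 and A8, its highest libraries, were also the highest in summed muscle genes. Mbp, the other most abundant gene of that list, was read at 30.5 to 54.1 CPM.

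Leukocyte markers, led by Lyz2 (19.6 to 75.2 CPM) and Csf1r (4.48 to 14.0 CPM), counted 14 with 8 below 0 and a median of -0.06 (0.21 with total-count scaling). Fibroblast and progenitor markers, led by Col3a1 and Dcn (43.1 to 98.2 CPM), counted 10 with 9 below 0 and a median of -0.32 (-0.13 with total-count scaling). Col3a1, a fibrillar collagen, was read at 163, 74.5 and 257 CPM in A7, A8 and A12 and at 33.5 to 104 CPM in the others. Blood itself was read through 5 erythroid markers, led by Hbb-bs (157 to 541 CPM) and Hba-a2 (103 to 358 CPM), all below 0 with a median of -0.36 (-0.14 with total-count scaling), and through platelet markers (4 of 5 tested, led by Pf4 at 0.889 to 4.57 CPM and Itga2b at 1.10 to 2.76 CPM), 3 below 0 with a median of -0.23 (0.07 with total-count scaling). No gene of these 4 lists was among the 4 called over the 15 lists. That count was 0 without A7, A25, A26, A29 or A31, 2 without A8 or A24 (Sned1 among them without A24), and 6 without A12. The erythroid sum was 772, 971 and 1082 CPM in A7, A8 and A12 and 1155, 517, 365, 855 and 777 CPM in A24, A25, A26, A29 and A31. A24 held the highest of these sums and A26 the lowest, both labelled adipo-HuR-/-, while A26 held the highest summed endothelial level.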

How the data were processed

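RNA-seq libraries of BAT from 8 mice, 3 labelled wild-type and 5 labelled adipo-HuR-/-, were compared. What the authors deposited are estimated counts of single transcripts, not normalized; reads shared by transcripts were split, and the program that wrote the counts, its annotation and its strand setting are not stated. Read mapping was done in CLC Genomics Workbench per the methods of the study. Estimated counts were summed by gene symbol and rounded. Genes kept by edgeR's filterByExpr were scaled by TMM and tested with edgeR's quasi-likelihood F-test (functions glmQLFit, glmQLFTest), adjusting p (Benjamini-Hochberg) over the 14851 genes that passed, and likewise over 41808 transcripts. The standard error is the size of the log2 fold change over the square root of F. Lengths, GC content and positions came from GENCODE release 21 of the mouse annotation. Totals lay between 17558090 and 67498055 counts per library, and precision from depth covers counting error only, as amplified reads are not independent molecules.

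The alternatives were scaling by total counts or by the size factors of DESeq2; the tests of limma voom (with quality weights for samples), of edgeR by likelihood ratio and of DESeq2 by Wald; a minimum of 10 counts in each library, or none; a covariate from skeletal muscle contractile genes (their mean log2 CPM, prior count of 2); a gene's most abundant transcript alone; other thresholds, each library left out in turn, and A24 and A25 left out together. Removing each library's trend on GC content and length (loess, span of 0.3) was chosen after seeing the data. The members and lists were chosen with earlier results of these data known. The lists were angiogenic ligands and oxygen sensing; endothelial co-receptors and signalling; further endothelial, arterial, venous, further lymphatic and further mural markers; lipoprotein lipase and fatty acid transport; and brown adipocyte, skeletal muscle, leukocyte, fibroblast, Schwann, erythroid and platelet genes. Named genes are the 34 markers, Elavl1, every called gene of a list and the 2 with the highest mean CPM in it, and the 8 genes outside the lists that correlate most with the endothelial mean; others are said to be chosen after their values were seen. The tools were DESeq2 1.42.0, limma 3.58.1 and edgeR 4.0.16 in R 4.3.3, and matplotlib 3.10.9, scipy 1.17.1, pandas 2.3.3 and numpy 2.4.6 in Python 3.11.15.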

Additional observations from a re-analysis of the deposited data

Results flagged for a closer look

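Within the 5 libraries labelled adipo-HuR-/-, 93 values (levels of the named genes and sums of lists) were checked for a single library far from the other 4, by the gap to its nearest neighbour over the whole range. Chance gives such a library in about 1 in 20 groups, and 7 were found. Groups of 3 were not checked, so the control libraries are not covered.

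Among the vascular markers, Erg was read at 6.20 CPM in A24 and at 11.4 to 12.9 CPM in the other 4, Ecscr at 10.9 CPM in A24 against 5.33 to 6.00 CPM, and Nos3 at 19.3 CPM in A31 against 22.6 to 23.9 CPM. The summed level of Schwann and nerve markers was 107 CPM in A24 against 86.4 to 91.9 CPM.

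The remaining values are of skeletal muscle in A31. The summed contractile genes were at 457 CPM there against 25.6 to 48.2 CPM, Acta1 at 54.0 CPM against 0.0949 to 0.395 CPM, and Myh4 at 106 CPM against 0 to 0.113 CPM. What set A24 and A31 apart was not tested.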

How the results depend on the processing

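The count of called markers, 0, was the same with DESeq2's size factors, limma voom, the muscle covariate, a minimum of 10 counts in each library or none, the most abundant transcript, other thresholds, without A24 and A25, and with GC and length trends removed. It was 1 with total counts, the Wald test and the likelihood ratio test, and 0 to 1 with a library left out. Of the 105 called genes in all, the count was 823 with the Wald test, 655 with the likelihood ratio test, 14 with the muscle covariate, 16 with the most abundant transcript, 5 without A24 and A25, 469 at an adjusted p of at most 0.1, and 10 to 190 with a library left out. The 4 calls of the other lists were 12, 10 and 2 with the Wald test, the likelihood ratio test and voom, 0 with the muscle covariate (which is built from a list that holds Myh7 and Myl1, so it does not test these 2), the most abundant transcript or without A24 and A25, and 0 to 6 with a library left out. The count of called transcripts of the markers was 0 with total counts and in each fit with a library left out.

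The markers below 0, 7, were 2 with total counts, 12 with the muscle covariate and 5 to 12 with a library left out. The median of 0.16 was 0.39 with total counts and 0.15 to 0.31 with a library left out. The summed endothelial ratio kept its sign in every alternative run (0.42 with total counts, 0.31 without A24 and A25, and 0.09 to 0.30 with a library left out), and the mural ratio was 0.14 with total counts, 0.15 as a mean of logs, and -0.19 to 0.01 with a library left out.

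Single markers whose sign turned had main values between -0.36 and 0.40. With total counts these were Flt1 (0.18), Flt4 (0.17), Erg (0.17), Icam2 (0.14) and Rgs5 (0.09). With voom they were Erg (0.04), Vwf (-0.11), Ptprb (-0.12) and Ecscr (-0.01). With the muscle covariate they were Flt4 (0.01), Tek (-0.02), Fli1 (-0.26), Vwf (-0.04), Ptprb (-0.25), S1pr1 (-0.22), Aplnr (-0.14), Icam2 (0.10) and Myct1 (-0.01). With the most abundant transcript they were Pecam1 (-0.09), Tek (-0.47), Sox17 (-0.52) and Icam2 (0.01). Without A24 and A25 they were Flt1 (0.10), Flt4 (0.18), Erg (0.05) and Ecscr (-0.08), and with GC and length trends removed Flt1 (0.10), Plvap (-0.16) and Rgs5 (0.07). With a library left out, values ran from -0.09 to 0.22 for Kdr, -0.25 to 0.19 for Flt1, -0.20 to 0.12 for Flt4, -0.09 to 0.26 for Tek, -0.10 to 0.63 for Emcn, -0.17 to 0.04 for Erg, -0.18 to 0.39 for Fli1, -0.05 to 1.68 for Cldn5, -0.24 to 0.65 for Vwf, -0.26 to 0.27 for Ptprb, 0.00 to 0.41 for S1pr1, -0.39 to 0.56 for Aplnr, -0.81 to 0.28 for Lyve1, -0.23 to 0.30 for Icam2, -0.08 to 0.23 for Ecscr, -0.24 to 0.32 for Myct1 and -0.24 to 0.00 for Rgs5. Values that kept their sign and moved by over 1.5 times ran from 0.19 to 0.41 for Pecam1, 0.04 to 0.33 for Cdh5, 0.21 to 0.58 for Eng, 0.24 to 0.61 for Robo4, 0.19 to 0.54 for Sox17, 0.13 to 0.31 for Plvap, 0.22 to 0.51 for Nos3, 0.15 to 0.39 for Mmrn2, 0.15 to 0.61 for Pdgfrb and 0.21 to 0.83 for Notch3. The cause was not tested.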
